A study of Homo sapiens with 6 samples.

Results

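The interferon regulatory factors (IRFs) IRF1, IRF2, IRF3, IRF5, IRF7, IRF8 and IRF9 were followed through the response of an ovarian cancer cell line to a STING1 agonist. The rule that picks them uses gene symbols and no measured value, although the set was drawn up with earlier results of these data known, and they are 7 of the 60498 genes in the table. A filter that asked for 10 counts on average left 15126 genes, and 6 of the 7 IRF genes passed it. IRF8 did not pass and is described by its counts.

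RNA-seq was done on isogenic lines of SKOV3, an established human ovarian cancer cell line. All lines descend from SKOV3 cells with the STING1 genotype WT/HAQ, in which HAQ is an allele with amino acid changes at several positions. The WT/- and HAQ/- lines are clones from CRISPR/Cas9 editing with a pair of guides, and each kept only the allele in its name. Every line gave 1 control library and 1 library from cells given 2'3'-cGAMP, the cyclic dinucleotide that STING1 binds, at 10 μg/mL for 30 min with 4 h of rest. The agonist entered cells permeabilized with digitonin, and the handling of the control cells is not given in the sources used here. The 3 treated and 3 control libraries therefore have no replicate within a line, and each genotype is 1 clone or the parent, so that allele and clone cannot be told apart.

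IRFs share a DNA-binding domain that recognizes the interferon-stimulated response element (ISRE). IRF3 is present in most cells before any signal and is phosphorylated by TBK1 once STING1 is engaged, after which it enters the nucleus and starts type I interferon transcription. IRF7 is made in larger amounts after interferon and carries the response further, IRF9 is the DNA-binding subunit of the complex ISGF3, in which it joins STAT2, downstream of the interferon receptors, and IRF1 is an inducible activator that shares DNA sites with IRF2, its antagonist at many promoters. IRF5 and IRF8 are best known from immune cells.

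The promoters of IRF1 and IRF9 are shown because they hold the GAS element (TTCNNNGAA, read on both strands), a site for STAT dimers, and because both transcripts rose with cGAMP. The RefSeq promoter table of GRCh38.p14 holds windows from 250 bases before to 50 bases after a start site for 4 of the 7 IRF genes, namely IRF1, IRF5, IRF8 and IRF9. Printed here are bases -150 to -51 from the start site, 5′ to 3′ on the strand of the gene, with the GAS in capitals. The stretch of IRF1 is chr5:132490824-132490923 on the minus strand, and that of IRF9 is chr14:24161115-24161214 on the plus strand.
IRF1: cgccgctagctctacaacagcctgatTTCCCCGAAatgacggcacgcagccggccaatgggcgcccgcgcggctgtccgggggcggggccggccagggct
IRF9: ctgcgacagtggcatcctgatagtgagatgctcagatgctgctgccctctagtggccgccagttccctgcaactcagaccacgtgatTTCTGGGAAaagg

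The GAS of IRF1 lies at -124 to -116 and that of IRF9 at -63 to -55. The printed stretches differ in base composition, with 73.0% G and C for IRF1 and 56.0% for IRF9. The 4 genes have 8 windows in all, some of them overlapping, and no GAS was found in those of IRF5 or IRF8. Of all 35116 promoter windows of that length in the table, 7.66% hold the element. The ISRE, spelled GAAANNGAAA and searched on both strands, was in 0 of the 8 windows of these 4 IRF genes, against 3.57% of all windows, so no GAS overlaps an ISRE here. These letters are a description of the windows and say nothing of binding.

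The 6 libraries held 12444822 to 17608467 counts, the WT/- cGAMP library being the shallowest. Levels are normalized counts, scaled by the TMM method of edgeR and given at a common library size, and intervals for single values are 95% counting intervals (exact Poisson for a level, Wilson for a ratio of 2 counts), which hold no variation between cultures. STING1 itself had 669, 353 and 213 normalized counts in control cells of WT/HAQ, WT/- and HAQ/-. Gene counts do not tell its alleles apart. Of the 8 epithelial markers, none was at 0 in any library and 0 passed the treatment test described below, although 3, 2 and 0 of them were lowered at least 1.5-fold in WT/HAQ, WT/- and HAQ/-. Their summed level, most of it ERBB2, ran from 88070 to 112907 in control and from 72623 to 92826 in cGAMP libraries. The sum does not show differences of single markers between lines. KRT19 had 5630 normalized counts in control cells of WT/HAQ, but 364 in WT/- and 414 in HAQ/-. The ovarian marker PAX8 had log2 fold changes of -1.78, -0.92 and -0.49 in WT/HAQ, WT/- and HAQ/- (adjusted p = 0.0821 by edgeR) and the keratin KRT7 had -1.002, -0.66 and -0.36 (adjusted p = 0.0644), and their part in the IRF values was not tested. MUC16, with 1 to 72 counts, was the marker raised in each line, at 1.23, 1.52 and 0.74 on the log2 scale (adjusted p = 0.0857). Leukocyte markers were at or near 0, with at most 7 counts for any of the 8, MS4A1 at 0 throughout, and a summed level of 4.36 to 8.84 in control and 7.66 to 8.55 in cGAMP libraries.

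Among the 6 IRF genes analysed, cGAMP raised 4 (IRF1, IRF2, IRF7 and IRF9) by 1.5-fold or more in each of the lines, and none was lowered that far. In bulk RNA, more responding cells and more RNA per cell cannot be told apart. Of all genes, 12.8% were raised at least 1.5-fold in the parent, 11.9% in the WT/- clone and 6.75% in the HAQ/- clone, and 3.11% in every line. The shares of all genes lowered as far were 12.3%, 8.79% and 5.76% in the same order. These per-line calls rest on 1 pair of libraries each and are sizes, not tests. Across the lines, edgeR's quasi-likelihood F test (line as a block, p adjusted by Benjamini-Hochberg) called the same 4 genes higher with cGAMP, against 2.27% of all genes, and IRF3 lower, against 0.959%. IRF5 did not pass. The test has 2 residual degrees of freedom and depends on which lines enter it. Without WT/-, 0 of the 6 IRF genes and 0 of the 15126 genes passed, although 5 IRF genes were at an unadjusted p under 0.05. Without WT/HAQ, 2 passed (IRF2 and IRF7), among 136 genes higher and 50 lower of the 15126. Without HAQ/-, 5 passed, among 1285 higher and 1309 lower. DESeq2 with the line as a block also called 5, among 772 higher and 583 lower, where the edgeR test on all lines called 344 and 145.

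**Figure D1:**
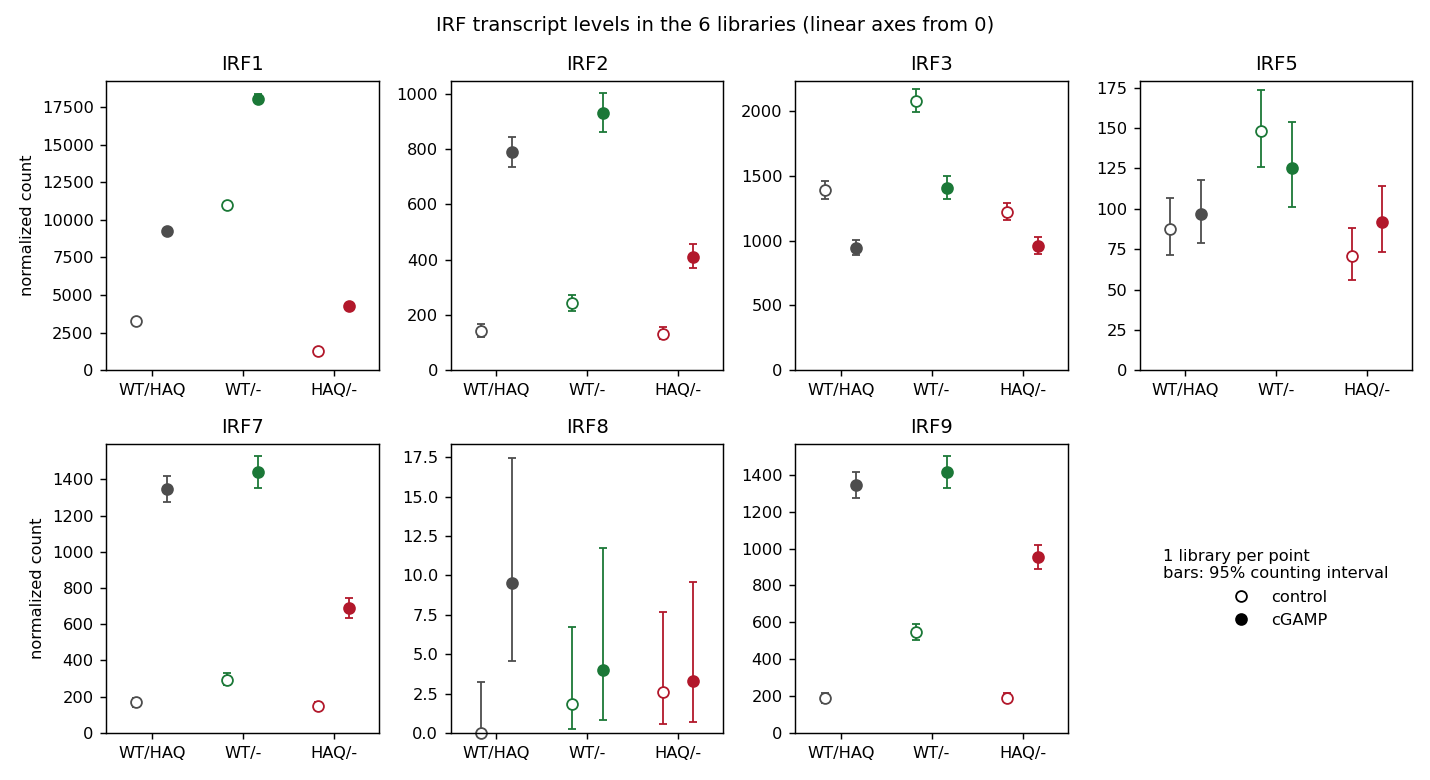
Normalized counts (linear axes from 0, a separate scale for each gene) of the 7 IRF genes in the 6 libraries, with open circles for control and filled circles for cGAMP, and bars for the 95% Poisson counting interval of the 1 library behind each point. The filled circles of IRF2, IRF7 and IRF9 lie above all open circles, those of IRF3 lie below the open circle of their own line, and IRF8 stays under 10 normalized counts.

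IRF3, the factor that is phosphorylated downstream of STING1, was lower with cGAMP. The gene (ENSG00000126456) is at 49659569 to 49665875 of chromosome 19 in GRCh38, on the minus strand, and all positions below are from the same build. It had 1389 normalized counts in control and 945 in cGAMP cells of WT/HAQ, 2077 and 1406 in WT/-, and 1221 and 961 in HAQ/-. Every line moved down, but the treated WT/- library was at the level of the WT/HAQ control, so the control and cGAMP groups overlapped. The log2 fold changes of WT/HAQ, WT/- and HAQ/- were -0.56 (-0.67 to -0.44), -0.56 (-0.67 to -0.46) and -0.34 (-0.47 to -0.22). Over the lines it was -0.49 (SE 0.078, adjusted p = 0.0458 by edgeR), with adjusted p from 0.00489 to 0.534 over 8 alternatives.

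The call on IRF3 sits close to the threshold, since size factors from DESeq2 gave an adjusted p of 0.0507. Between lines, the fold in WT/HAQ and that in WT/- differed by 0.01 on the log2 scale (-0.15 to 0.16), while HAQ/- fell less than WT/- by 0.22 (interval of WT/- minus HAQ/-, -0.38 to -0.06). BCL2L12, on the opposite strand, shares 734 exonic bases with IRF3, and the strand setting of the counting is not given in the sources used here. Its log2 fold changes were -0.02, -0.30 and -0.33 in WT/HAQ, WT/- and HAQ/-, and its count was 14.8% to 32.3% of that of IRF3. Its part in the IRF3 values was not tested.

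IRF7, the inducible partner of IRF3 in interferon transcription, had the largest change over the lines among the IRF genes. It lies on the minus strand of chromosome 11, from 612553 to 615983 (ENSG00000185507). Its level went from 168 to 1347 normalized counts in WT/HAQ cells, from 294 to 1438 in the WT/- clone and from 147 to 687 in the HAQ/- clone. All treated libraries were above all control libraries, and the treated HAQ/- library was the lowest of the treated ones. These are folds of 8.02 (6.89 to 9.33), 4.89 (4.32 to 5.55) and 4.66 (3.94 to 5.52). Over the lines the log2 fold change was 2.50 (SE 0.17, adjusted p = 0.00700 by edgeR, and 8.0e-28 to 0.152 over the alternatives).

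The fold of IRF7 in WT/HAQ exceeded that in WT/- by 0.71 (0.43 to 0.997) and that in HAQ/- by 0.78 (0.45 to 1.11) on the log2 scale. The folds of the clones differed by 0.07 (-0.24 to 0.37), and WT/- held 1.99 times the IRF7 of HAQ/- before cGAMP and 2.09 times as much after it. After cGAMP, WT/- and WT/HAQ could not be separated by counting error, with a ratio of 1.07 (0.987 to 1.16).

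IRF9, the factor of ISGF3, rose in every line but from unequal starting levels. The gene (ENSG00000213928) is on the plus strand of chromosome 14, from 24161234 to 24168043. It had 188 normalized counts in control and 1345 in cGAMP cells of WT/HAQ, 545 and 1414 in WT/-, and 190 and 953 in HAQ/-. The WT/- control stood apart from the other control libraries, and all treated libraries were above it. The log2 fold changes of WT/HAQ, WT/- and HAQ/- were 2.84 (2.63 to 3.04), 1.38 (1.23 to 1.52) and 2.33 (2.11 to 2.54). Over the lines it was 2.16 (SE 0.28, adjusted p = 0.0297 by edgeR, and 7.4e-12 to 0.174 over the alternatives).

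For IRF9 the WT/- line had the smallest fold, by 1.46 (1.21 to 1.71) on the log2 scale against WT/HAQ and by 0.95 (0.69 to 1.21) against HAQ/-. In control cells WT/- held 2.87 times (2.45 to 3.35) the IRF9 of HAQ/-, while WT/HAQ and HAQ/- did not differ beyond counting error, at a ratio of HAQ/- to WT/HAQ of 1.01 (0.837 to 1.22). After cGAMP the ratio of WT/- to WT/HAQ was 1.05 (0.971 to 1.14). A gene on the same strand (ENSG00000259529) shares 1544 exonic bases with IRF9 and had 7.46% to 23.0% of its count, with log2 fold changes of 1.34, 1.01 and 2.19. Reads in the shared bases may have been divided between them.

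STAT2, which binds IRF9 in ISGF3, also rose, with a log2 fold change over the lines of 2.54 (SE 0.28, adjusted p = 0.0189 by edgeR). It did not move in step with IRF9. In WT/- the log2 fold change of STAT2 exceeded that of IRF9 by 1.18 (0.999 to 1.36), in WT/HAQ by 0.41 (0.16 to 0.65), and in HAQ/- it was smaller by 0.52 (interval of STAT2 minus IRF9, -0.78 to -0.27). Per kilobase of annotated exons, STAT2 went from 1.83 to 2.42 times the level of IRF9 in WT/HAQ and from 1.13 to 2.55 times in WT/-, but from 1.72 to 1.198 times in HAQ/-. By the main transcripts the ratios went from 0.973 to 1.29, from 0.598 to 1.35 and from 0.915 to 0.636 in the same order, so which of the pair was more abundant depends on the length chosen in the 3 control libraries and in treated HAQ/- cells, while STAT2 was the more abundant in treated WT/HAQ and WT/- cells under both lengths.

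IRF1, the inducible activator, spanned 8.40-fold over the untreated lines, which is more than its fold with cGAMP in any line. It lies on the minus strand of chromosome 5, from 132440440 to 132508719 (ENSG00000125347). Its level went from 3252 to 9248 normalized counts in WT/HAQ cells, from 10982 to 18071 in the WT/- clone and from 1307 to 4292 in the HAQ/- clone. The WT/- control was above the treated libraries of both other lines, so control and cGAMP groups overlapped. The folds were 2.84 (2.74 to 2.95), 1.65 (1.61 to 1.69) and 3.28 (3.09 to 3.49). Over the lines the log2 fold change was 1.31 (SE 0.20, adjusted p = 0.0444 by edgeR, and 1.4e-07 to 0.763 over the alternatives).

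Every step in the order of the IRF1 levels exceeded counting error. WT/- cGAMP was followed by WT/- control, WT/HAQ cGAMP, HAQ/- cGAMP, WT/HAQ control and HAQ/- control, and the narrowest step was 1.19-fold (1.16 to 1.22), between WT/- control and WT/HAQ cGAMP. The line with the highest untreated level had the smallest fold, and the line with the lowest had the largest. The level and the fold share the control library, so this order is not a separate result. C5orf56, on the opposite strand, shares 2805 exonic bases with IRF1 but had only 0.578% to 3.47% of its count.

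IRF2, the antagonist of IRF1 at shared sites, was among the genes that rose. It lies on the minus strand of chromosome 4, from 184385702 to 184474558 (ENSG00000168310). It had 143 normalized counts in control and 789 in cGAMP cells of WT/HAQ, 243 and 931 in WT/-, and 133 and 412 in HAQ/-. The treated libraries were all above the control libraries. The log2 fold changes of WT/HAQ, WT/- and HAQ/- were 2.46 (2.22 to 2.70), 1.94 (1.73 to 2.14) and 1.63 (1.36 to 1.91). Over the lines it was 2.02 (SE 0.17, adjusted p = 0.0101 by edgeR, and 6.9e-17 to 0.213 over the alternatives).

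Against IRF1, the change of IRF2 was larger by 0.95 log2 units in WT/HAQ (IRF1 minus IRF2, -1.20 to -0.71) and by 1.22 in WT/- (-1.43 to -1.01). In HAQ/- the pair differed by 0.08 (-0.20 to 0.37). Per kilobase of annotated exons, IRF1 was 12.4 times as abundant as IRF2 in control and 6.43 times in cGAMP cells of WT/HAQ, and 24.8 and 10.6 times in WT/-. The values in HAQ/- were 5.40 and 5.72 times. The ratio thus came down in the lines that carry a WT allele and stayed within counting error in HAQ/-, which are single libraries of 1 parent and 2 clones.

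IRF5, a factor best known from myeloid and B cells, was low and did not pass the test. It lies on the plus strand of chromosome 7, from 128937457 to 128950038 (ENSG00000128604). It had 87.5 normalized counts in control and 96.9 in cGAMP cells of WT/HAQ, 148 and 126 in WT/-, and 70.7 and 92.0 in HAQ/-. The groups overlapped, and no neighbours in the order of the 6 levels were separated by counting error. The log2 fold change over the lines was 0.085 (SE 0.18, adjusted p = 0.808 by edgeR, and 0.587 to 0.995 over the alternatives). By line it was 0.15 (-0.25 to 0.55), -0.24 (-0.61 to 0.13) and 0.38 (-0.06 to 0.82).

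IRF8, a factor of myeloid and lymphoid cells, was near the limit of detection. The gene (ENSG00000140968) is on the plus strand of chromosome 16, from 85899116 to 85922606. It had 0 counts in control and 10 in cGAMP cells of WT/HAQ, 2 and 3 in WT/-, and 3 and 3 in HAQ/-. With the control count of WT/HAQ set to the floor of 3, the level was 3.58-fold higher with cGAMP. That value leaves out the counting error of both libraries. The Poisson interval was 0 to 3.26 normalized counts in control cells, and 4.56 to 17.5 around 9.50 in cGAMP cells. No fold was taken in the other lines, where both libraries were at or under the floor. Leukocyte markers were at or near 0 in all libraries, with values given above. IRF4, another factor of immune cells, had 0 and 1, 0 and 1, and 3 and 10 counts in control and cGAMP cells of WT/HAQ, WT/- and HAQ/-.

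**Figure D2:**
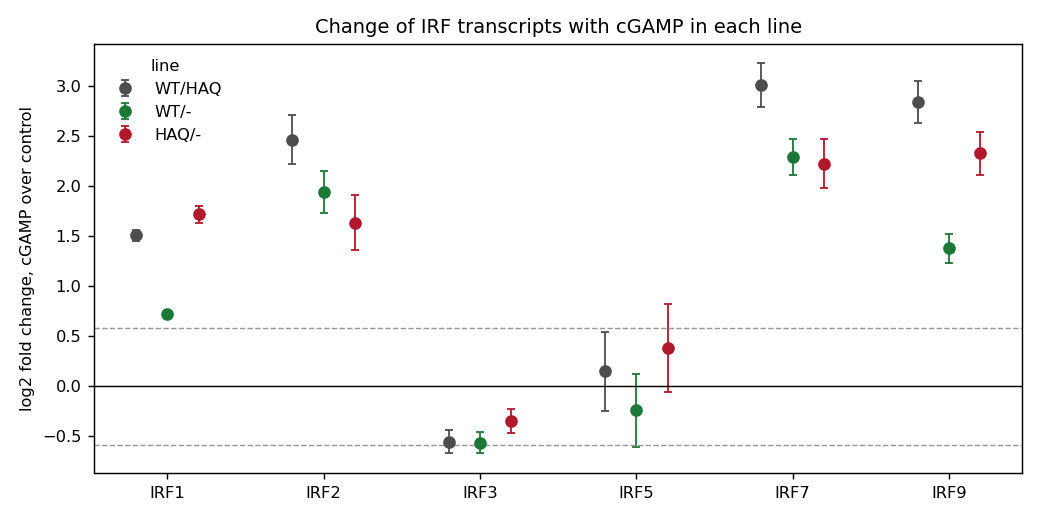
Log2 fold change of cGAMP over control for the 6 IRF genes analysed, with 1 point per line and bars for the 95% counting interval, and dashed lines at 1.5-fold in either direction. IRF1, IRF2, IRF7 and IRF9 lie above the upper dashed line in every line, IRF3 lies between 0 and the lower one, and WT/- has the lowest point for IRF1 and IRF9.

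Before any cGAMP, the WT/- clone held more of each of the 6 IRF transcripts analysed than the other lines. Its control library was at least 1.5-fold above that of WT/HAQ for 5 of the 6 IRF genes, against 13.0% of all genes, and above that of HAQ/- for 6 of 6, against 15.3%. The ratios of WT/- to WT/HAQ ran from 1.496 for IRF3, just under the threshold, to 3.38 for IRF1, with a median log2 ratio of 0.78 beside -0.00 over all genes. Against HAQ/- they ran from 1.70 for IRF3 to 8.40 for IRF1, with a median of 1.03 beside -0.00. WT/HAQ and HAQ/- were closer, and only IRF1 was 1.5-fold higher in WT/HAQ, by 2.49-fold, against 8.59% of all genes. Each of the 3 control libraries enters more than 1 of these comparisons, and all of them enter the folds above.

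After cGAMP the median log2 ratio of WT/- to WT/HAQ over the IRF genes was 0.31, and HAQ/- lay below both lines for IRF1, IRF2, IRF7 and IRF9. WT/- was at least 1.5-fold above WT/HAQ for 1 of the 6 IRF genes (IRF1, by 1.95-fold), against 14.6% of all genes. WT/HAQ was 1.5-fold above HAQ/- for 3 (IRF1, IRF2 and IRF7), against 13.3%. WT/- was so for 3 (the same genes), against 19.0%. For IRF3 the treated levels of WT/HAQ and HAQ/- did not differ beyond counting error, at a ratio of HAQ/- to WT/HAQ of 1.02 (0.929 to 1.11). IRF9 was 1.41-fold (1.30 to 1.53) higher in WT/HAQ than in HAQ/-.

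**Figure D3:**
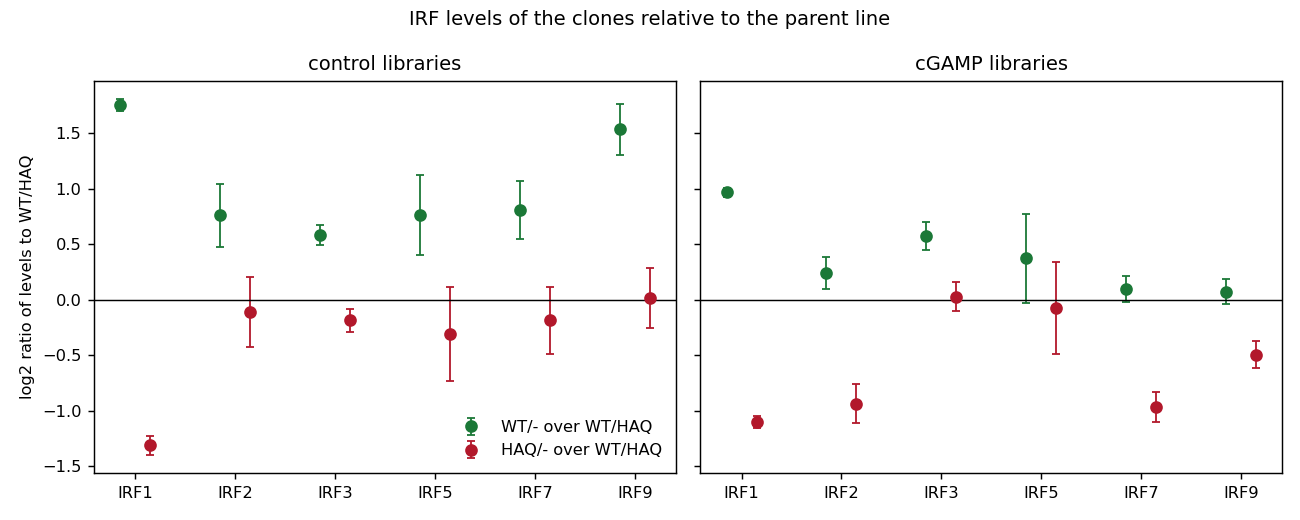
Log2 ratio of the level in each clone to that in the parent WT/HAQ, for control libraries (left) and cGAMP libraries (right), with bars for the 95% counting interval of 2 counts. All green points (WT/-) lie above 0 on the left and come closer to 0 for IRF1, IRF2, IRF5, IRF7 and IRF9 on the right, where the red points (HAQ/-) of IRF2, IRF7 and IRF9 lie lower than on the left.

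The make-up of the IRF transcripts shifted away from IRF3. Divided by the length of all annotated exons, IRF3 was 48.3% of the summed IRF transcripts in control and 13.4% in cGAMP cells of WT/HAQ, 32.3% and 13.4% in WT/-, and 59.1% and 23.3% in HAQ/-. The share of IRF7 went from 8.48% to 27.7%, from 6.63% to 19.9% and from 10.4% to 24.2% in the same order. IRF9 went from 3.83% to 11.2%, from 4.96% to 7.89% and from 5.40% to 13.5%.

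IRF1 was the most abundant IRF transcript per length in WT/- before and after cGAMP, at 52.8% and 53.2%, and in WT/HAQ and HAQ/- it came to exceed IRF3 only with cGAMP. The length matters to these levels. IRF1 has 12265 bases of annotated exons but a main transcript of 3554, and with the length of the main transcript IRF1 took 43.9% of the IRF transcripts in WT/HAQ control cells in place of 35.0%, ahead of IRF3 at 41.8%. The ratio of IRF3 to IRF7 per kilobase went from 5.69 to 0.483 in WT/HAQ cells, from 4.87 to 0.673 in the WT/- clone and from 5.70 to 0.962 in the HAQ/- clone. By the main transcripts it went from 9.97 to 0.846, from 8.52 to 1.18 and from 9.98 to 1.69, so whether IRF7 passed IRF3 in WT/- and HAQ/- depends on the length chosen.

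**Figure D4:**
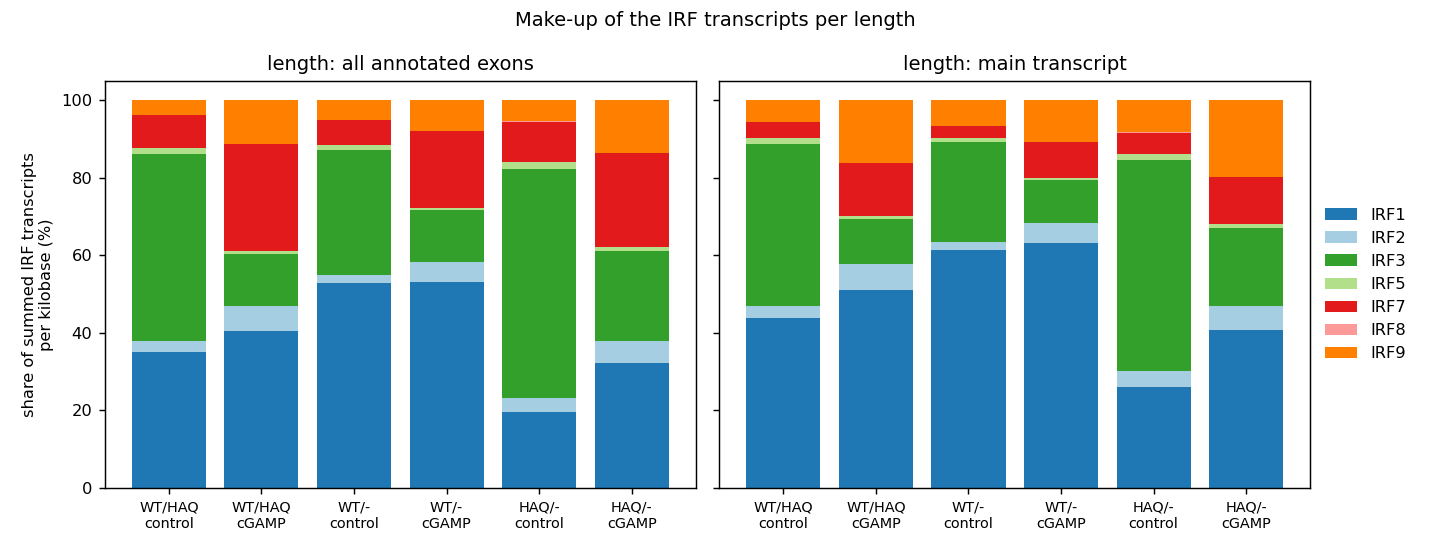
Share of each IRF gene in the summed IRF transcripts per kilobase (%, stacked to 100), in the 6 libraries, with the length of all annotated exons on the left and of the main transcript on the right. The green IRF3 segment shrinks and the red IRF7 and orange IRF9 segments grow with cGAMP in each line under both lengths, and the blue IRF1 segment is widest in WT/-.

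The genes that act upstream of IRF3 and IRF7 moved in part. Of 16 analysed, 5 were higher and 0 lower across the lines by edgeR, with median log2 fold changes of 0.15, 0.19 and 0.06 for WT/HAQ, WT/- and HAQ/-, beside -0.01, -0.00 and -0.01 over all genes. Those higher were STING1, the RNA sensors RIGI and IFIH1, the endosomal receptor TLR3 and the adaptor MYD88. STING1 was close to the threshold (log2 fold change 1.01, SE 0.16, adjusted p = 0.0447 by edgeR), and its call was lost with DESeq2 size factors (0.0505), at a mean count of at least 50 (0.0505), without WT/HAQ (0.0881), without WT/- (0.233) and without the line block (0.598). IFIH1 had the largest mean fold, with log2 fold changes of 6.64, 5.41 and 4.60 in the same order (adjusted p = 0.00797 by edgeR). TBK1, the kinase of IRF3, had the smallest, at -0.68, -0.11 and -0.40, and did not pass (adjusted p = 0.131).

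Of 9 partners and co-regulators analysed, 2 were higher and 1 lower across the lines by edgeR, with medians of 0.07, 0.21 and -0.05. The lower one was NFKB1, a subunit of NF-kB that binds beside IRF3 at the interferon beta promoter. Its log2 fold changes were -0.84, -0.46 and -0.51 (adjusted p = 0.0462 by edgeR), and the call sits close to the threshold. STAT2 had the largest mean fold of that list, at 3.24, 2.55 and 1.80. Of 8 negative regulators of IRF3 or IRF7, 1 was higher and 0 lower, with medians of 0.22, 0.28 and 0.11. TRIM21, a ubiquitin ligase, was the gene that rose, with log2 fold changes of 2.32, 1.92 and 2.24 (adjusted p = 0.00344 by edgeR). TRIM28 had the smallest mean fold of the list, at -0.09, -0.20 and -0.08, and did not pass.

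The listed targets of IRF3 and of ISGF3 had larger median folds than any of the IRF genes. All 10 genes listed as IRF3 targets were raised in each line and higher by edgeR, with median log2 fold changes of 8.25, 7.46 and 5.35 for WT/HAQ, WT/- and HAQ/-, counts under 3 being set to 3. OASL, a sensor-binding relative of the OAS enzymes, had the largest mean of the 3 log2 fold changes, at 8.47, 7.69 and 6.33, while the edgeR fold over the lines was larger for IFNB1 (8.16), CXCL10 (7.98), IFNL1 (7.92) and CCL5 (7.74) than for OASL (7.52). ISG15, a ubiquitin-like modifier, had the smallest, at 7.08, 5.60 and 5.15 by line, under the edgeR fold as well. The list was uneven in HAQ/-, as seen in 3 genes named after their values were known. The interferon gene IFNB1 had log2 fold changes of 8.15, 9.85 and 1.65, the interferon gene IFNL1 8.73, 9.19 and 1.61, and the chemokine gene CXCL10 7.95, 8.72 and 1.497. Their treated HAQ/- library held 15, 17 and 9 counts.

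All 12 ISGF3 targets were likewise raised in each line and higher by edgeR, with medians of 5.62, 4.34 and 4.03. MX2, a restriction factor, led with 7.64, 7.42 and 6.65, and the RNA-editing enzyme ADAR was last with 1.02, 0.95 and 0.61. Of 15 IRF1 targets, 10 were higher and 0 lower by edgeR, with medians of 1.73, 1.56 and 1.05. Of these, 13, 15 and 11 were raised in WT/HAQ, WT/- and HAQ/-. GBP1 had the largest mean fold, at 3.60, 3.34 and 2.51, and GBP2, of the same family of guanylate-binding proteins, the smallest, at 0.37, 0.80 and 0.01 (adjusted p = 0.199).

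Over the 6 libraries, IRF2 and IRF7 were close to parallel (Pearson r = 0.996 of log2 normalized counts), followed by IRF7 and IRF9 (0.974) and IRF2 and IRF9 (0.968). IRF3 was not like them, with r = -0.39 against IRF7. IRF1 and IRF5 had r = 0.878. These are descriptions of 6 libraries that share 3 lines and 1 treatment contrast.

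Among 2967 genes with enough counts and range, SP100 was most like IRF2 (r = 0.999), ahead of IFI27 and EPSTI1. EPSTI1 was most like IRF7 (0.999), followed by PARP12 (0.997) and SP100 (0.997), so that SP100 and EPSTI1 stood near both factors. IRF9 was nearest to LGALS9 (0.995), which encodes galectin-9, then to PPP1R3D (0.993) and RUSC1 (0.991). LGALS9 had log2 fold changes of 3.33, 1.96 and 2.67 in WT/HAQ, WT/- and HAQ/-, the order of the folds of IRF9. It was picked by correlation over these same libraries, so that order is not a separate result.

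IRF3 was nearest to GORAB (0.997), to PLAU (0.994), which encodes urokinase, and to KLF10 (0.992). Each of these 3 had negative folds in all lines, which is likewise not separate from the choice by correlation. IRF1 was nearest to ZNF300P1 (0.987), P2RX4 (0.979) and PSORS1C1 (0.974). IRF5 was nearest to ENGASE (0.982), IER5 (0.979) and TSPYL2 (0.977). Its log2 range of 1.07 was just over the minimum asked for, and neighbours in the order of its levels were within counting error. For every IRF gene the genes named are the highest of many correlations over few libraries, and what chance would give was not tested.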

How the data were processed

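RNA-seq of 6 libraries (3 lines, control or cGAMP) was deposited by the authors with a value per Ensembl gene in estimated counts (RSEM's expected counts), which are not normalized. The submitters' processing notes name STAR and RSEM, with no version given, and the genome build hg38. The annotation release and the strand setting are not given in the sources used here. Counts were rounded to whole numbers, and 0 columns were left unmatched to a sample. Groups came from the sample labels.

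Library sizes were scaled by TMM (edgeR 4.0.16, R 4.3.3). A gene was raised or lowered in a line at 1.5-fold, with counts under 3 set to 3. Treatment was tested across the lines by edgeR's quasi-likelihood F test with the line as a block, fitted on all 15126 genes, and by DESeq2 1.42.0 as an alternative. p-values measure the spread between lines, as no line has a replicate. Levels per kilobase used GENCODE release 44, which holds 56434 of the 60498 gene identifiers. Python 3.11.15, matplotlib 3.10.9, scipy 1.17.1, pandas 2.3.3 and numpy 2.4.6 were used for the rest. The edgeR test and the search for the ISRE were tried on simulated data.

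The IRF genes, the lists and the rules were chosen with earlier results of these data known. Named by rule were the IRF genes, IRF4, STING1, for each IRF gene the 3 genes with the highest Pearson correlation (mean count of at least 50, log2 range of at least 1, prior count 2), and the largest and smallest mean fold of each list. Some genes under these rules and lists are not reported here. Other genes were named after their values were seen: genes of a list that passed the test, genes whose exons overlap an IRF gene, cell type markers, and 4 listed IRF3 targets. Alternatives were DESeq2 size factors, total counts only, thinning to the smallest library, a floor of 10 counts, no filter or a mean count of at least 50, 2-fold or 1.2-fold, no line block, each line left out, the length of the main transcript, a prior count of 10 and 1 mismatch in the ISRE.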

Additional observations from a re-analysis of the deposited data

Results flagged for a closer look

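The log2 fold change of IRF5 differed in sign between lines, at 0.15, -0.24 and 0.38 in WT/HAQ, WT/- and HAQ/-, and the counting interval of each of these values includes 0. Its log2 fold change in WT/HAQ exceeded that in WT/- by 0.39, with a counting interval of -0.15 to 0.93 that includes 0. WT/- minus HAQ/- was -0.62, with an interval of -1.20 to -0.05. With 1 library per line and treatment, the difference between lines was not tested.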

How the results depend on the processing

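The count of IRF genes raised in a line was 4 under every alternative except 3 of them, which gave 3 in WT/- at 2-fold (without IRF1), 5 in WT/HAQ with no filter (with IRF8) and 5 in HAQ/- at 1.2-fold (with IRF5). The number lowered, 0 at 1.5-fold, became 1 in WT/HAQ and 1 in WT/- with total counts only, and 1 in each of the 3 lines at 1.2-fold, the gene being IRF3. The 5 genes called across the lines became 0 without the line block, where 3 were at an unadjusted p under 0.05, and ranged from 0 to 5 when a line was left out. No called value changed sign. IRF5, which was not called, had a log2 fold change over the lines of -0.055 without HAQ/- in place of 0.085. With a prior count of 10, PPP1R3D (r = 0.993) was nearest to IRF9 and LGALS9 (0.990) came after RUSC1, while P2RX4 and PSORS1C1 left the 3 genes nearest to IRF1 and SP100 those nearest to IRF7. IRF5 was then not compared. Allowing 1 mismatch, the ISRE was found in 4 of the 8 IRF windows (of IRF5 and IRF8), against 33.02% of all windows. No paired analysis by replicate number was possible because each condition has 1 library, and the pairing used is the line. Depth limits IRF8, and counting intervals leave out variation between cultures.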
